A study of Homo sapiens with 2 samples.

Results

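The proteasome subunit genes were examined in HCT116 cells, an established human colon cancer cell line, with and without forced expression of HOXA5 short RNA. Genes were taken in when an array probe carried a RefSeq mRNA accession whose gene symbol starts with PSMA, PSMB, PSMC, PSMD, PSME or PSMG. PSMB8 and PSMB9 were left out of the set. The values of the probes played no part in the choice, beyond the demand that a probe be well above background on both arrays. This demand was met for 43 subunit and chaperone genes, represented by 53 probes, among the 11994 genes that could be compared. The same prefixes also took in PSMC3IP and PSME3IP1, which are named after the subunits they bind and are not parts of the particle. They are described apart.

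All cells carried a pEB vector and had been selected with blasticidin for 2 weeks. In the mock cells (genotype label: control) the vector was empty, and in the other cells it carried HOXA5 short RNA, a long non-coding RNA from the HOXA5 locus without the first exon of the gene. The protocol text, which both samples share, names the HOXA5 short vector for the mock cells too. Whether the stable cells came from 1 clone or from a pool is not given in the sources used here. Each group had 1 array, hybridized with Cy3-labeled total RNA on a single slide, so no difference was tested and every fold below is a description of this pair of arrays. In bulk RNA of this kind, a change in the number of cells of a type and a change in RNA per cell cannot be told apart.

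The proteasome is the large protease that degrades proteins tagged with ubiquitin in the cytosol and nucleus. Its 20S core is a barrel built from rings of alpha subunits (PSMA), which gate the entrance, and rings of beta subunits (PSMB), some of which hold the active sites. The 19S cap unfolds substrates with a ring of ATPases (PSMC) and recognizes and deubiquitinates them with non-ATPase subunits (PSMD). The PA28 and PA200 activators (PSME) can bind the core in place of the cap, and dedicated chaperones (PSMG, POMP and several PSMD proteins) build core and cap. Transcription of the subunit genes is driven in concert by NFE2L1, which pairs with small MAF proteins and binds antioxidant response elements in their promoters.

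The short core of that element, TGACNNNGC, was searched on both strands in the 250 bases before the start site of each gene (RefSeq, GRCh38.p14). Windows were found for 37 of the 43 subunit genes, and where RefSeq listed several start sites the farthest upstream was used. TGACNNNGC was found in 10 of the 37 windows (27.0%) and in 11.1% of the windows of 27305 genes. The letters CCAAT were found in 16 of the 37 (43.2%) and in 33.0% of all windows. Neither comparison allowed for base composition. The matches of PSMG2 and PSME1, the subunit genes with the highest differences between the arrays, and of PSMD9 and PSME4, with the lowest, are shown because they let sequence and difference be read side by side. Capitals mark the match, printed as its reverse complement where it lies on the opposite strand.
PSMG2, chr18:12658689-12658717, plus strand: cagtttcccgTGACCCCGCggccgctctg
PSME1, chr14:24136098-24136126, plus strand: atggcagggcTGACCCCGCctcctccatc
PSMD9, chr12:121888631-121888659, plus strand: cgctactcctGCCGGGTCAccacaggcgc
PSMD9, chr12:121888678-121888706, plus strand: cggcttccggTGACCCAGCtccgccctaa
PSME4, chr2:53971009-53971037, minus strand: cccggcggctGCAGCGTCAccagcagagc
The motif in PSMG2 began 39 bases before the start site, that in PSME1 86 bases and that in PSME4 34 bases before it. PSMD9 held a match on each strand, at 149 and 102 bases. PSMG4 (0.28) and PSMB10 (0.25), whose differences were as large as that of PSME4 (-0.25), held none. The median log2 difference of the 10 genes with a match was -0.11 and that of the 27 genes without one was 0.03. A match of these letters does not show that a factor binds there.

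On each array 50599 probes were read, with 36.4% well above background for mock and 37.5% for HOXA5 short. HOXA5 itself had a processed signal of 39.4 in mock and 346 in HOXA5 short cells, 7.11-fold higher after scaling. Whether its probe lies in the part of the gene present in HOXA5 short RNA was not examined here. Signals were scaled to the 75th percentile of each array (35.7 for mock and 44.0 for HOXA5 short), so a gene with an unchanged share of the signal has a higher raw signal on the HOXA5 short array. Of 8 epithelial markers 6 were detected, with EPCAM at 3492 and 4510 and KRT19 at 30237 and 36346, while VIL1 and LGALS4 were not. Of 10 markers of other cell types 8 were not well above background, the exceptions being COL1A1 (16.7 and 22.6) and DES (53.5 and 84.9). For probes printed in many spots, the SD of the log2 difference of a single spot was 0.25. By brightness it fell to 0.23 for signals above 1000, and it was 0.34 where signals lay between 15 and 50 and 0.26 where they lay between 50 and 200. This spread is technical and holds no variation between cultures. Spots flagged as outliers were kept in it, while the values of genes leave them out. Multiples of this SD given below are therefore set against a spread that holds such spots, and the spread without them was not computed.

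As a group, the proteasome subunit genes differed little between the arrays. Their median log2 difference, HOXA5 short minus mock, was 0.02, against -0.02 for all genes. The values ran from -0.50 for PSMD9 to 0.81 for PSMG2, with an SD over genes of 0.21, where all genes had an SD of 0.29. Of the 43 genes 36 (83.7%) lay within 0.25 of 0, as did 74.8% of all genes. Within 0.5 lay 41 (95.3%), close to the 93.3% of all genes. The difference was above 0 in 23 genes (53.5%) and below it in 20, and among all genes it was above 0 in 45.5%. Scaling to the array median put 35 above 0 (all genes 66.3%) and scaling to the RNA spike-ins (control RNAs added at labeling) put 42 above 0 (all genes 95.5%), since these shift every gene by 0.10 and 0.42. Signs below refer to the 75th percentile. None was 2-fold higher or lower, levels reached by 0.642% and 0.258% of all genes. PSMG2 alone was at least 1.5-fold higher, a level passed by 2.78% of all genes, and none was at least 1.5-fold lower, where 1.6% of all genes were.

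**Figure D1:**
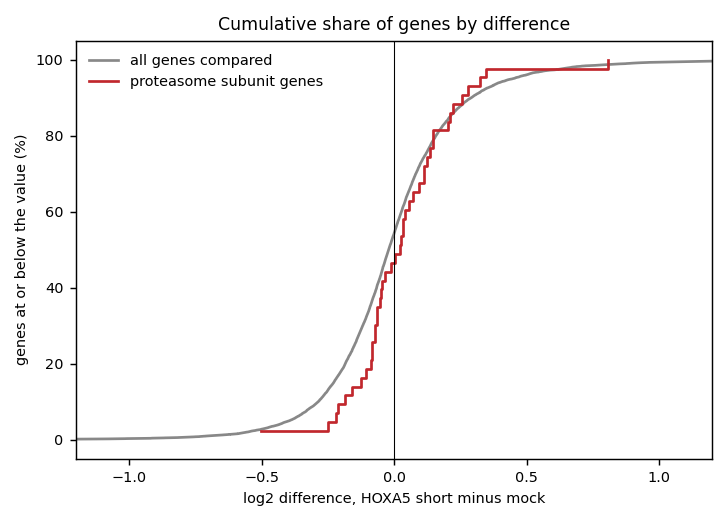
Cumulative percentage of genes (vertical axis) at or below a given log2 difference, HOXA5 short minus mock (horizontal axis), for the 43 proteasome subunit genes (red steps) and all 11994 genes compared (grey). The red steps begin at -0.50 and rise more steeply through 0 than the grey line, and the last step stands apart at 0.81.

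The structural subunits of the core and the cap lay close together. The 32 genes of the core, the base and the lid centered on 0.01 (median), with an SD of 0.14, and ran from -0.22 (PSMA1) to 0.32 (PSMB7). Of them 30 (93.75%) lay within 0.25 of 0, where 74.8% of all genes did. Taking all 53 probes, 11 (20.8%) differed by more than 1 SD of a single spot of their brightness, close to the 22.8% of all probes compared. A difference above 2 such SDs was seen for 3 probes (5.66%, all probes 5.64%), which belonged to PSMG2, PSMD9 and PSMD1.

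**Figure D2:**
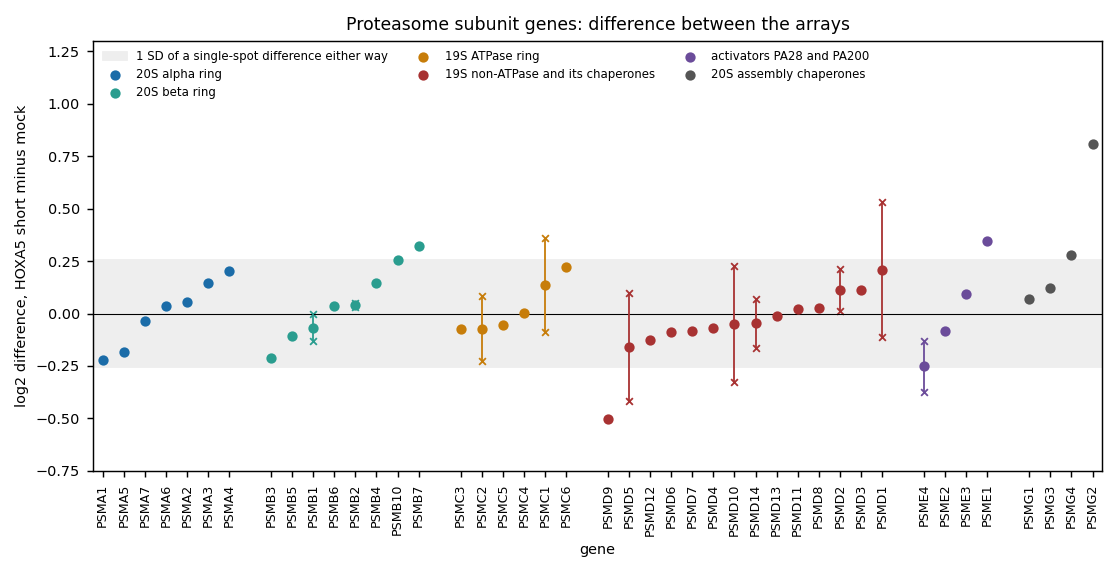
Log2 difference, HOXA5 short minus mock (vertical axis), of the 43 genes, ordered within 6 classes (color). Filled points are the mean over the passing probes of a gene, crosses joined by a line are single probes where there were several, and the grey band is 1 SD of a single-spot difference either way (0.25). Most points lie in the band, and PSMG2 at 0.81 and PSMD9 at -0.50 lie farthest outside it.

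The alpha ring gave 7 genes with a median of 0.03 and no gene beyond 0.25. PSMA4 was highest, with a processed signal of 1623 in mock and 2303 in HOXA5 short cells, which gave a log2 difference of 0.20 after scaling. PSMA1 was lowest, at 3631 and 3849, a difference of -0.22. The remaining values were 0.15 for PSMA3, 0.05 for PSMA2, 0.03 for PSMA6, -0.03 for PSMA7 and -0.18 for PSMA5. Thus 4 genes of the ring stood above 0, where 45.5% of all genes did, and 3 below it. PSMA8, the alpha subunit of the testis, was not well above background on either array (1.64 and 1.78).

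Of the beta ring 8 genes were measured, with a median of 0.04. PSMB5, PSMB6 and PSMB7 encode the catalytic subunits of the constitutive core, with chymotrypsin-like, caspase-like and trypsin-like activity. PSMB5 read 6732 in mock and 7710 in HOXA5 short cells (log2 difference -0.11; pairs of signals are given in this order from here on), and PSMB6 read 5402 and 6829 (0.03). PSMB7 read 4908 and 7581 (0.32), the highest value of the ring and 1.43 times the SD of a spot of its brightness. The 3 catalytic genes therefore ran from -0.11 to 0.32, or 1.25-fold higher. The structural genes PSMB4 (0.15), PSMB2 (0.04), PSMB1 (-0.07) and PSMB3 (4393 and 4676, -0.21) ran from -0.21 to 0.15.

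Immunoproteasome subunits replace the constitutive catalytic subunits under interferon, and the set held only PSMB10, which takes the place of PSMB7. PSMB10 read 2465 and 3628, a log2 difference of 0.25. PSMB9, which replaces PSMB6 and was left out of the set by its rule, read 1040 and 1545, a difference of 0.27. PSMB8, the third of these subunits, was not well above background on either array (3.14 and 4.65), and so was PSMB11, the thymus-specific beta subunit, on both of its probes. The detected pair, PSMB10 and PSMB9, was thus higher in HOXA5 short cells by 1.12 and 1.18 times the SD of a single spot.

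**Figure D3:**
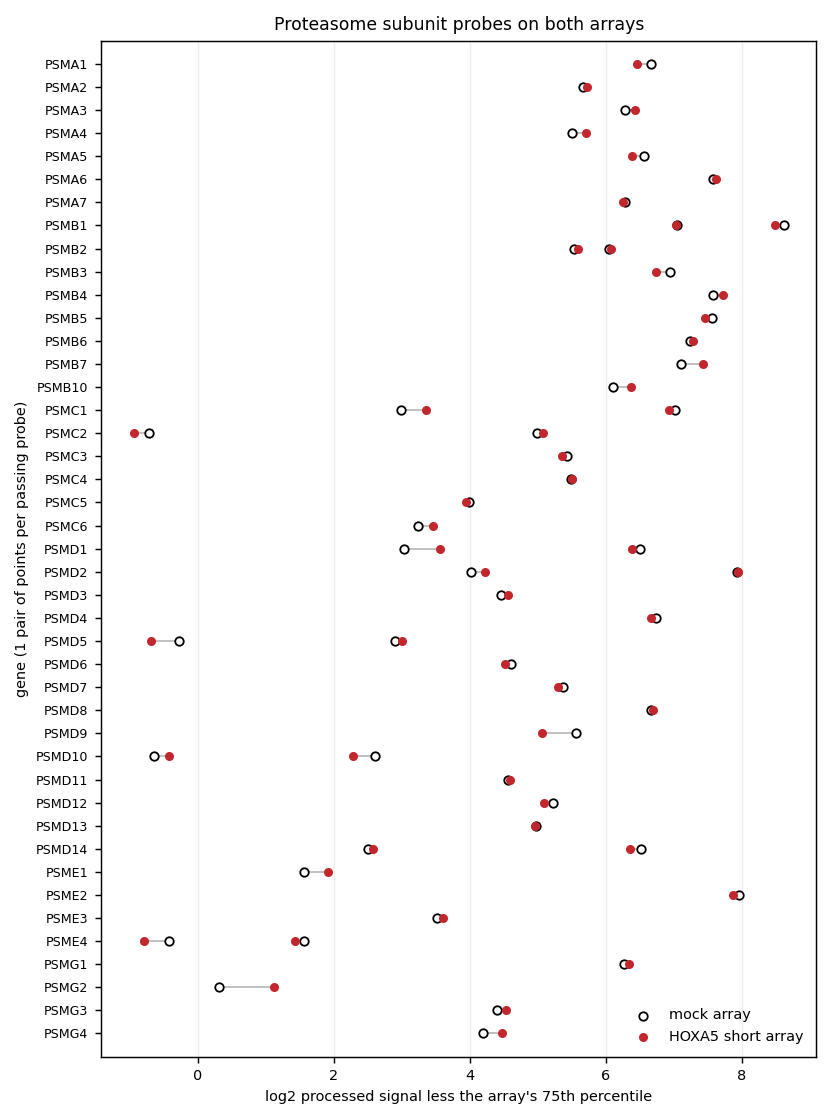
Scaled log2 signal (horizontal axis, processed signal less the 75th percentile of the array) of the 53 passing probes of the 43 genes (vertical axis, 1 pair of points per probe), on the mock array (open) and the HOXA5 short array (red). Most pairs overlap or nearly touch, and the longest gap is that of PSMG2. Levels of different probes cannot be compared.

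The 6 ATPase genes of the 19S base lay between -0.07 (PSMC3, 1541 and 1808) and 0.22 (PSMC6, 336 and 483), with a median of -0.02. PSMC4 was at 0.00 and PSMC5 at -0.05. PSMC1 and PSMC2 each had a pair of probes that pointed in opposite directions. A probe of PSMC1 (4635 and 5374) gave -0.09 and the other (283 and 449) gave 0.36. For PSMC2 a probe at 1132 and 1479 gave 0.08, and a probe with another transcript accession, which read 21.7 and 22.9, gave -0.23. The means of these genes, 0.13 and -0.07, rest on these discordant probes.

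The non-ATPase genes numbered 14, with a median of -0.05. They stood above 0 in 5 cases (35.7%), where 45.5% of all genes did, and below 0 in 9. At or below the median of all genes lay 8 of the 14, as did 5997 of all 11994 genes. The lid, which holds the deubiquitinase PSMD14 and scaffold proteins, had the smallest SD among core, base and lid. Its 8 genes ran from -0.13 (PSMD12, 1324 and 1497) to 0.11 (PSMD3, 782 and 1043) and had an SD of 0.08, against 0.12 for the base and 0.17 for the core. Averaging differed, since PSMD6 and PSMD7 are means over 9 and 10 spots, where most core genes rest on a single spot. Its part in these SDs was not tested. The lid subunit SEM1, outside the set, was not counted. The deubiquitinase itself was at -0.05, from probes at -0.16 and 0.07. The other lid genes were PSMD8 at 0.03, PSMD11 at 0.02, PSMD13 at -0.01, PSMD7 at -0.08 and PSMD6 at -0.09.

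PSMD6 and PSMD7 were the only subunit genes whose probe was printed in 10 spots, so their values come with a spread over spots. The copies of PSMD7 read between 1369 and 1594 on the mock array, with a median of 1485, and between 1551 and 1822 on the other array, with a median of 1761. Their mean log2 difference was -0.08 ± 0.09 (SD, n = 10 spots), below 0 in 8 spots. For PSMD6 the 9 copies used read between 827 and 947 on the mock array, with a median of 848, and between 955 and 1064 on the other array, with a median of 996. The mean was -0.09 ± 0.10 (SD, n = 9 spots), below 0 in 7. In both genes the mean is no larger than the SD of single copies. That SD is not the error of the mean, which was not computed. Both SDs were smaller than the spread of their range of brightness, 0.25 for PSMD6 and 0.23 for PSMD7, in which flagged spots were kept. The remaining copy of PSMD6, marked as an outlier, gave 0.33 and was not used.

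**Figure D4:**
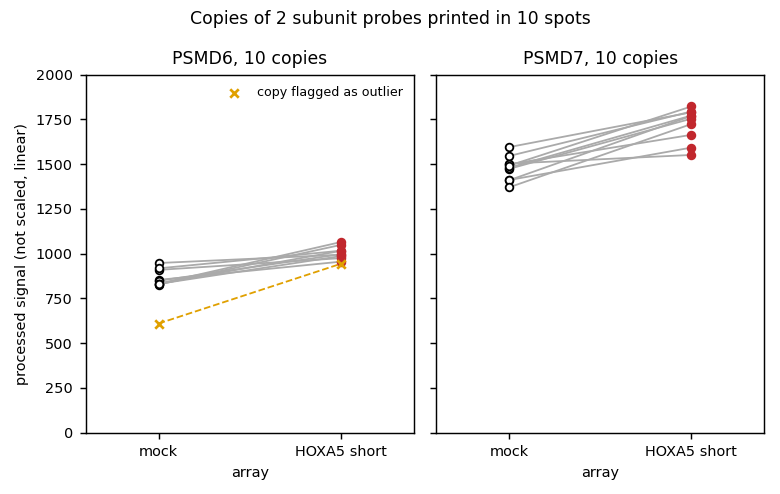
Processed signal before scaling (vertical axis, linear, from 0) of the 10 copies of the PSMD6 and PSMD7 probes on the mock (open) and HOXA5 short (red) arrays, with a line joining the same spot. Signals are higher on the HOXA5 short array in every spot before the scaling values (35.7 and 44.0) are taken off, and the dashed line is the PSMD6 copy marked as an outlier.

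The ubiquitin receptor and scaffold subunits of the base were PSMD4, at -0.07, PSMD2, at 0.11, and PSMD1, at 0.21. PSMD1 was the highest of the non-ATPase genes, but its probes disagreed more than those of any other subunit gene. A probe at 3215 and 3673 gave -0.11 and a probe at 291 and 519 gave 0.53, a gap of 0.64. For PSMD2 a probe at 8661 and 10787 gave 0.01 and the other, at 575 and 821, gave 0.21. Across the 10 subunit genes with several passing probes, the median gap between the lowest and the highest probe was 0.28, and in 6 genes the probes differed in sign.

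The 3 PSMD genes whose proteins are chaperones of base assembly and leave before the particle is finished all stood below 0, but for PSMD5 and PSMD10 this depended on the setting. PSMD10 was above 0 when scaled to the array median and with the local median subtracted (0.09). PSMD5 was above 0 with the brightest probe of each gene and with signals above the median (0.10 in both), and both genes were when scaled to the spike-ins. PSMD9 had the lowest value of all subunit genes, with signals of 1690 and 1473, which gave a log2 difference of -0.50 or 1.42-fold lower. It was the only probe in the first column of the grid among the members, and 3 of its 16 well-measured neighbors differed 2-fold between the arrays. A second probe of PSMD9 was not well above background (1.77 and 1.94). PSMD5 averaged -0.16 from probes at 0.10 (266 and 352) and -0.42 (29.6 and 27.4). PSMD10, also known as gankyrin, averaged -0.05 from probes at -0.33 (217 and 214) and 0.23 (22.7 and 32.9). PAAF1, another chaperone of the base, differed from them with a mean of 0.41, but again from discordant probes, at 0.80 (150 and 323) and 0.01 (327 and 408).

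The chaperones of the 20S core stood on the other side. PSMG1 to PSMG4 form a pair of dimers that assemble the alpha ring, and all 4 genes were above 0 here and under each of the 12 other settings that measured them, with a median of 0.20. Of all genes 45.5% were above 0 here, a share that ran from 36.3% to 95.5% over the other settings. PSMG2 had the highest value of the whole set, with signals of 44.1 and 95.3, which gave a log2 difference of 0.81 or 1.75-fold higher. This was 3.07 times the SD of a single spot of that brightness, and none of the 28 well-measured neighbors of the spot differed 2-fold. After another background correction (normexp, which models signal and background together) its difference was 0.45. That setting also added 50 to every signal and gave both arrays the same distribution (quantile normalization). PSMG4 read 654 and 978 (0.28), PSMG3 read 755 and 1015 (0.12) and PSMG1, the partner of PSMG2 in its dimer, read 2743 and 3556 (0.07). These were 1.13, 0.50 and 0.31 times the SD of a single spot of their brightness. The partners PSMG1 and PSMG2 thus had the lowest and the highest difference of the group. A second probe of PSMG4 was not well above background (2.02 and 4.56).

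POMP, the maturation factor that joins the nascent beta ring and is the first substrate of the finished core, was measured outside the set. It read 49.7 and 95.9, a log2 difference of 0.65 or 1.57-fold. Its spot lay where 2 of 27 neighbors differed 2-fold. The difference was 0.32 after normexp and 0.50 after subtraction of the local median, both under 1.5-fold, and without uneven zones POMP was not measured. The 5 genes of core assembly, PSMG1 to PSMG4 and POMP, thus had a median of 0.28 with all 5 above 0, and the 4 of base assembly, PSMD5, PSMD9, PSMD10 and PAAF1, had a median of -0.10 with 1 above 0. Of all genes 45.5% were above 0. The 2 groups were formed after the values were seen, and their difference was not tested.

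Among the activators, PSME1 and PSME2 encode the alpha and beta subunits of PA28, are induced by interferon and lie near each other on chromosome 14. PSME1 read 105 and 165, a log2 difference of 0.35 or 1.27-fold higher. PSME2 read 8837 and 10294, a difference of -0.08. After subtraction of the local median of neighboring spots, PSME1 was at 0.19 and PSME2 at 0.21, so the gap between the genes of this pair was not present under that setting. PSME3, which forms the nuclear PA28 gamma, read 407 and 536 (0.09). PSME4, which encodes PA200, was lowest at -0.25, from probes at -0.13 (105 and 118) and -0.37 (26.7 and 25.4) that agreed in sign.

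The surroundings of each spot on the grid were examined. The spots of PSMB7, PSMC6, PSMD9 and PSME3 lay in zones where at least 5% of well-measured neighbors differed 2-fold between the arrays, as did 6.85% of all passing probes. Without such zones 39 subunit genes were left, and their median was 0.03 above that of all genes. The part of the grid position in these values was not tested.

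PSMC3IP, a factor of meiotic recombination, read 82.9 and 144, a log2 difference of 0.49. Its spot lay in an uneven zone, where 2 of 27 neighbors differed 2-fold. The difference of PSMC3IP was 0.28 with the local median subtracted and 0.33 after normexp. PSME3IP1, which binds PA28 gamma, averaged 0.27 from discordant probes. Its probe with 10 copies (57.4 to 69.1 and 54.0 to 79.7) gave -0.12 ± 0.19 (SD, n = 10 spots), and a probe in a single spot gave 0.65, or 1.57-fold higher.

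Other genes of the pathway were read from lists. Of 13 further proteins of the particle or its regulation 11 were compared, with a median of 0.02, and 6 were above 0 (54.5%, all genes 45.5%). POMP was the highest and ZFAND2A, which binds the cap under stress, the lowest, at 245 and 228 (-0.40). With the local median subtracted ZFAND2A was at -0.0015. The ubiquitin receptor ADRM1 was at -0.19, the deubiquitinase UCHL5 at -0.27 and the inhibitor PSMF1 at -0.04. The lid subunit SEM1 was at 0.09, the mean of unlike probes. Its mRNA probe, in an uneven zone, gave 0.16 (2386 and 3293). A probe with a non-coding transcript accession gave 0.01 (13.7 and 17.0). USP14 was not well above background on its single probe. POMP was the only one of the 11 at least 1.5-fold higher (all genes 2.78%), which it was not under the settings named above, and none was as much lower.

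Of 17 genes for ubiquitin and for delivery of substrates 14 were compared, with a median of 0.01, 7 above 0 (all genes 45.5%) and 7 below. UBB, which encodes polyubiquitin, read 7865 and 12058 (0.31). RPS27A, which encodes ubiquitin fused to a ribosomal protein, was at -0.16. The shuttle factor RAD23B was lowest at -0.20, from probes at -0.17 and -0.22. The unfoldase VCP was at 0.03, with its cofactors UFD1 at 0.31 and NPLOC4 at -0.18. None of the 14 reached 1.5-fold.

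Of 7 genes for the transcriptional control of the subunits 5 were compared, and 4 were above 0 (all genes 45.5%). NFE2L1 itself read 887 and 1162, a log2 difference of 0.09. Its small partners were higher, with MAFK at 194 and 331 (0.47), MAFF at 46.3 and 73.3 (0.38) and MAFG at 0.12. MAFK lay in an uneven zone, where 7 of 29 neighbors differed 2-fold, and was at 0.15 with the local median subtracted. NGLY1, which deglycosylates NFE2L1, was at -0.18. NFE2L2 (1.80 and 1.98) and the protease DDI2 (7.58 and 4.64) were not well above background. Each was read by a single probe, so whether the RNA was absent cannot be told.

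For comparison, the 82 genes of the cytosolic ribosome, another large complex with fixed stoichiometry, had a median difference of 0.04 with an SD of 0.25. The 76 genes of the mitochondrial ribosome had a median of -0.04 with an SD of 0.48. The SD of the latter depends on single genes (lowest -3.09, highest 1.08), and 86.8% of its genes lay within 0.25 of 0, against 83.7% of the proteasome genes and 78.0% of the cytosolic ribosome genes. Among the 29 subunit genes with a signal of at least 1000, 89.7% lay within 0.25 of 0, as did 85.0% of all 1608 genes of that brightness. None of these shares was tested against another.

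The position of the set relative to all genes was recomputed under other ways of processing. Under the 12 other settings, the median of the subunit genes stayed between 0.01 and 0.13 above that of all genes. The 0.13 arose without a filter on dim probes, where the subunit median stayed at 0.02 and that of all 21614 genes was -0.11. The next highest value was 0.07, with the local median subtracted. The difference lay above the median of all genes under every setting that measured the gene for 16 subunit genes, among them PSMG1 to PSMG4, PSMB7, PSMB10, PSMC6, PSME1 and PSMA4. It lay below under every such setting for PSMA1, PSMB3, PSMB5, PSMD9, PSMD12 and PSME4. The other 21 genes fell on either side. Part of this agreement was fixed in advance. Scaling to the array median, the spike-ins or the 75th percentile of detected probes shifts every gene equally. None of these can move a gene or the set relative to all genes. A gene with a single passing spot keeps its difference, or drops out, under the brightest-probe, bright-signal and uneven-zone settings.

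**Figure D5:**
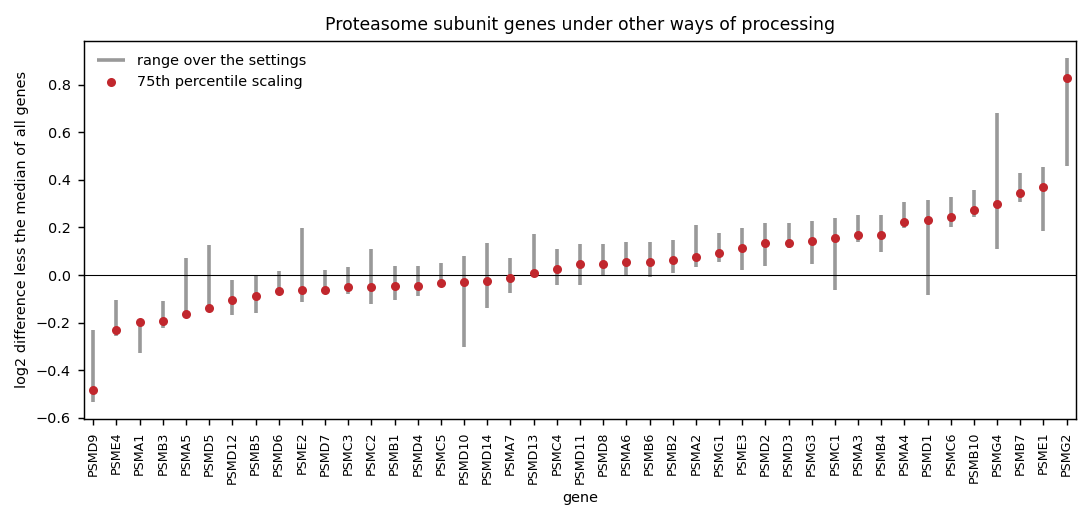
Log2 difference of the 43 genes less the median of all genes (vertical axis), sorted by value. Red points show scaling to the 75th percentile and grey lines the range over the 12 other settings. Lines of PSMD9 and PSME4 stay below 0 and those of PSMG2, PSME1 and PSMB7 stay above it, while 21 genes cross it.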

How the data were processed

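Total RNA of HCT116 cells was measured on 1 Agilent array per group, grouped by the label for genotype. The deposited scanner files, made with Feature Extraction 11.5.1.1 per the file headers, hold a linear, background-corrected intensity per spot. A table of log2 values deposited by the authors, with each probe centered on its mean, served as an alternative.

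Intensities were converted to log2, spots of a probe were averaged without those flagged as outliers, and the 75th percentile of the non-control probes was subtracted. A probe passed when well above background on both arrays (17938 of 50599), and the value of a gene is the mean difference of its passing probes. Probes were named through RefSeq transcript accessions (GRCh38.p14), mRNA or non-coding, which named 15304 of the passing probes (85.3%). Members of the set were taken in by mRNA accessions only. The array design is on hg19, and no probe coordinates are given. Promoter windows are those of RefSeq.

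With 1 array per group no test was possible. The spot spread over all brightness was taken from 561 probes with at least 5 copies, all well above background on both arrays. The spreads by brightness used every probe with such copies in the range of signal, detected or not. Flagged spots were kept in both. A spot lay in an uneven zone when at least 5% of its well-measured neighbors within 4 rows and columns (10 or more) differed 2-fold. This rule and the groups of assembly genes were chosen after the values were seen.

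The members and lists were chosen with earlier results of these data known. Named were the highest and lowest gene of each class and list, members past 1.5-fold, catalytic and PSME genes, genes with discordant or undetected probes, PSMB8 and PSMB9. The remaining members are given by value. Some genes of the ubiquitin list are not reported here. Scaling, normalization, background, filter, probe choice and grid position were varied with limma 3.58.1 in R 4.3.3 and pandas 2.3.3 in Python 3.11.15. The calculation was tested on simulated data. All value columns of the files that belong to the samples were assigned.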

Additional observations from a re-analysis of the deposited data

How the results depend on the processing

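Each value was recomputed under 12 other settings, and counts also over probes. For the set as a whole 70 recomputed values stayed close (within 1 SD of a spot, or 1.5 times for a count) and 7 moved, and for classes, lists and genes 418 stayed close and 51 moved. Some of those that stayed close could not move, as with the brightest probe for genes that had a single passing probe. PSMG2 kept its sign throughout, while small differences of other genes changed theirs. Scaling to the median added 0.10 and left 35 of the 43 subunit genes above 0, where 66.3% of all genes were. Scaling to the RNA spike-ins added 0.42. The subunit median was then 0.44, 42 genes were above 0 (all genes 95.5%), 8 were at least 1.5-fold and 1 was at least 2-fold higher. Relative to the median of all genes, neither moved any gene. No gene was at least 1.5-fold higher (0) after normexp background correction, where PSMG2 was at 0.45 and POMP at 0.32, nor (0) when only signals above the median were kept, a filter that removed PSMG2. The normexp setting also added 50 to every signal and was followed by quantile normalization. The part of these steps in the normexp difference was not tested. With the brightest probe of each gene, PSMD1 was at -0.11, PSMD10 at -0.33 and PSMD5 at 0.10. With the local median subtracted, PSME2 was at 0.21, PSME1 at 0.19, MAFK at 0.15, POMP at 0.50 and ZFAND2A at -0.0015. No spot was saturated, so leaving out saturated spots was not run.

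No paired analysis was possible because there was 1 array per group. Precision is limited by the single pair of arrays, the only error at hand is the spread of spots, and this is wider for dim probes.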
